A study of Mus musculus with 18 samples.

Results

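The genes described here are 10 lipid droplet genes of mouse liver, Plin2, Plin4, Plin5, Cidea, Cideb, Cidec, G0s2, Pnpla2, Mogat1 and Cd36. They were taken by gene name from a table of raw read counts for 32285 genes in 18 liver libraries, and all 10 were found. Of these, 8 passed the filter on low counts, as did 13356 genes in all. Cidea and Mogat1 did not pass it and are given by their counts only.

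The livers came from 3 groups of 6 mice of the strain B6D2F1, all labelled wild-type. GS cells, cultured spermatogonia set up from the testes of DBA/2 mice that carried the EGFP transgene of C57BL6/Tg14(act-EGFP-OsbY01), had been kept frozen for 6 months either on the International Space Station or on Earth, and then transplanted into the testes of W mice, which form almost no sperm of their own and were housed with C57BL/6 females. Their F1 offspring, examined at 10 weeks of age, form the groups Space and Ground, and wild-type BDF1 mice form the control group. The comparisons address whether storage in space, or passage through frozen GS cells and transplantation at all, went with a different liver transcriptome in the offspring. The labels give no separate age for the BDF1 mice, no litter or sire, no sex and no time of day or feeding state at collection.

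Hepatocytes keep surplus fatty acids as triglyceride in lipid droplets, whose surface carries perilipins that control the access of lipases. Plin2 coats most hepatic droplets, Plin5 joins droplets to mitochondria, and Plin4 is a perilipin of small droplets in fat and muscle. Pnpla2 encodes adipose triglyceride lipase, which starts droplet breakdown, and G0s2 encodes its inhibitor. CIDE proteins enlarge droplets by fusing them, with Cideb also serving the lipidation of very-low-density lipoprotein. Mogat1 makes diacylglycerol from monoacylglycerol, and CD36 takes up long-chain fatty acids at the cell surface. Several of these genes are known targets of PPAR-alpha, the nuclear receptor of the fasting liver.

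Library totals ranged from 15407450 to 20562351 counts, so 3 counts corresponded to 0.134 to 0.234 CPM, the count scaled to a library of 1000000. Replicates 1 to 3 of every group, called the first set below, had at most 187 Xist counts and between 1822 and 2482 counts of 4 Y-linked genes. Replicates 4 to 6, called the second set, had 12218 to 21557 Xist counts and at most 26 Y-linked counts. Groups were therefore compared within each set, 3 libraries against 3. Some libraries stood apart. Alb, the gene of serum albumin, took 17.6% to 24.1% of the counts in the 6 Space and Ground libraries of the second set, and 4.47% to 8.03% elsewhere. Serpina6, which encodes corticosteroid-binding globulin, took 2.18% to 3.43% in Space replicate 4 and Ground replicates 5 and 6, and at most 0.107% in the others. Leaving out these 3 libraries leaves 2 Space libraries and 1 Ground library, replicate 4, in the second set, and in the values given for that fit the lone library is assumed to vary like the other groups. Counts of 7 genes of developing sperm summed to 914 in Space replicate 6 and 104 in BDF1 replicate 3, and to at most 13 in each other library. All 10 hepatocyte markers examined were present in every combination of group and set.

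Promoter sequences are shown for the 5 genes whose differences between groups passed the test. They are the 250 bases before the gene start that RefSeq gives in GRCm38.p6, written 5′ to 3′ on the gene's strand. Capitals mark AGGTCA, the half-site bound by many nuclear receptors, on either strand.
Plin2, chr4:86670060-86670309, minus strand: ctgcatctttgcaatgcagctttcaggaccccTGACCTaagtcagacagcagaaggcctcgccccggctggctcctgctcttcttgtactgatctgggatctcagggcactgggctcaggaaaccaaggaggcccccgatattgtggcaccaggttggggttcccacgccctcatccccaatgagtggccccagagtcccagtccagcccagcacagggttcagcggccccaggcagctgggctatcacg
Plin5, chr17:56117549-56117798, minus strand: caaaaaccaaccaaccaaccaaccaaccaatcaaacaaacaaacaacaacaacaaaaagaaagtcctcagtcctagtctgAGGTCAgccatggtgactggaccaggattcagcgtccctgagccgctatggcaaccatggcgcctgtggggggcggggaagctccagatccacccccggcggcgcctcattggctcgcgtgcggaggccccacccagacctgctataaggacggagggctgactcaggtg
Cd36, chr5:17835897-17836146, minus strand: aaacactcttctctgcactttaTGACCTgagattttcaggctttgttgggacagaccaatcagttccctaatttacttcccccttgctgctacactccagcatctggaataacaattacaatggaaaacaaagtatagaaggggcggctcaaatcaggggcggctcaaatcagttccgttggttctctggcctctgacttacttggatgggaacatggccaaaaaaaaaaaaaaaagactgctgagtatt
Plin4, chr17:56109783-56110032, minus strand: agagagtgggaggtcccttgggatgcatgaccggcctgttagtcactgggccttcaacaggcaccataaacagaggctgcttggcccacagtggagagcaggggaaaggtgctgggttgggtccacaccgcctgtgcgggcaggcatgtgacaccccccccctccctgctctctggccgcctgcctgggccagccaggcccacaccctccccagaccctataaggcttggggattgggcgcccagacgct
G0s2, chr1:193273189-193273438, minus strand: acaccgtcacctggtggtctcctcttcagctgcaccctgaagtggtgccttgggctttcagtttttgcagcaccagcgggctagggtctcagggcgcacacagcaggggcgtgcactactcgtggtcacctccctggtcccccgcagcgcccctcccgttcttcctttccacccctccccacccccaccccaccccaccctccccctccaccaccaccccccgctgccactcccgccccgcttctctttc

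RefSeq has a second window for Plin5, at chr17:56117299-56117548 and without the match, which is not printed. The RefSeq start of Cd36 lies inside the gene as GENCODE M21 gives it. The match began 218 bases before the start in Plin2, 170 in Plin5 and 228 in Cd36. RefSeq windows were found for 9 of the 10 genes, 11 windows in all, and the 3 just named were the ones with the letters. Of all 32851 such windows of 250 bases, 14.0% held AGGTCA on either strand, beside 3 of these 11. Pairs of AGGTCA 1 base apart in direct repeat (DR1) stood in 0.0335% of all windows, and CACGTG (6.02%) and TTATGNAA (3.07%) were searched in the same way on both strands. None of these 3 was found in the 11 windows. Plin4 and Plin5 are neighbours on the minus strand of chromosome 17, with 1797 bp between them in GENCODE M21.

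Levels were compared between genes as CPM per kilobase of exon. Averaged over the 18 libraries, Cideb was highest at 169 CPM per kilobase, followed by Plin2 at 97.8, G0s2 at 91.4, Plin5 at 21.2, Pnpla2 at 20.1, Cd36 at 9.50 and Plin4 at 1.64. Cidec was at 0.320, Mogat1 at 0.0986 and Cidea at 0.0276 CPM per kilobase. The order of neighbours was not the same in every liver. Cideb exceeded Plin2 in 17 of 18 libraries and Plin2 exceeded G0s2 in 15, while Plin5 exceeded Pnpla2 in 9 and Cd36 exceeded Plin4 in 12. G0s2 spanned the widest range in CPM per kilobase among the upper genes, from 23.2 to 350.4. Cideb spanned 138 to 212.

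No difference between Space and Ground livers passed the test for any of the 8 genes, whereas several differences of both from BDF1 livers did. In the first set, Plin4 and Plin5 were higher in Space than in BDF1, and the same 2 genes were higher in Ground. In the second set, Plin2, Plin4, Plin5, G0s2 and Cd36 were higher in Space than in BDF1, and those 5 genes were higher in Ground as well. None of the 8 was called lower than in BDF1 by edgeR in either set, and G0s2, whose first-set values lay below BDF1, is described further on. The tests were edgeR quasi-likelihood tests with Benjamini-Hochberg adjustment over all 13356 genes, and a gene was called at an adjusted p under 0.05. In the first set 2 of 8 were called for Space against BDF1, where 4.64% of all genes tested were called, and 2 of 8 for Ground against BDF1, where the share of all genes was 1.92%. In the second set it was 5 of 8 in both, beside 11.9% of all genes for Space and 15.2% for Ground. Their median log2 difference over the 8 was 1.58 for Space and 1.36 for Ground in the second set, and -0.16 and -0.10 in the first, while the median over all genes tested lay within 0.01 of 0 in each. Space and Ground were compared with the same BDF1 libraries, so these comparisons are not independent. In whole liver, a change in the share of a cell type and a change in RNA per cell cannot be told apart.

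**Figure D1:**
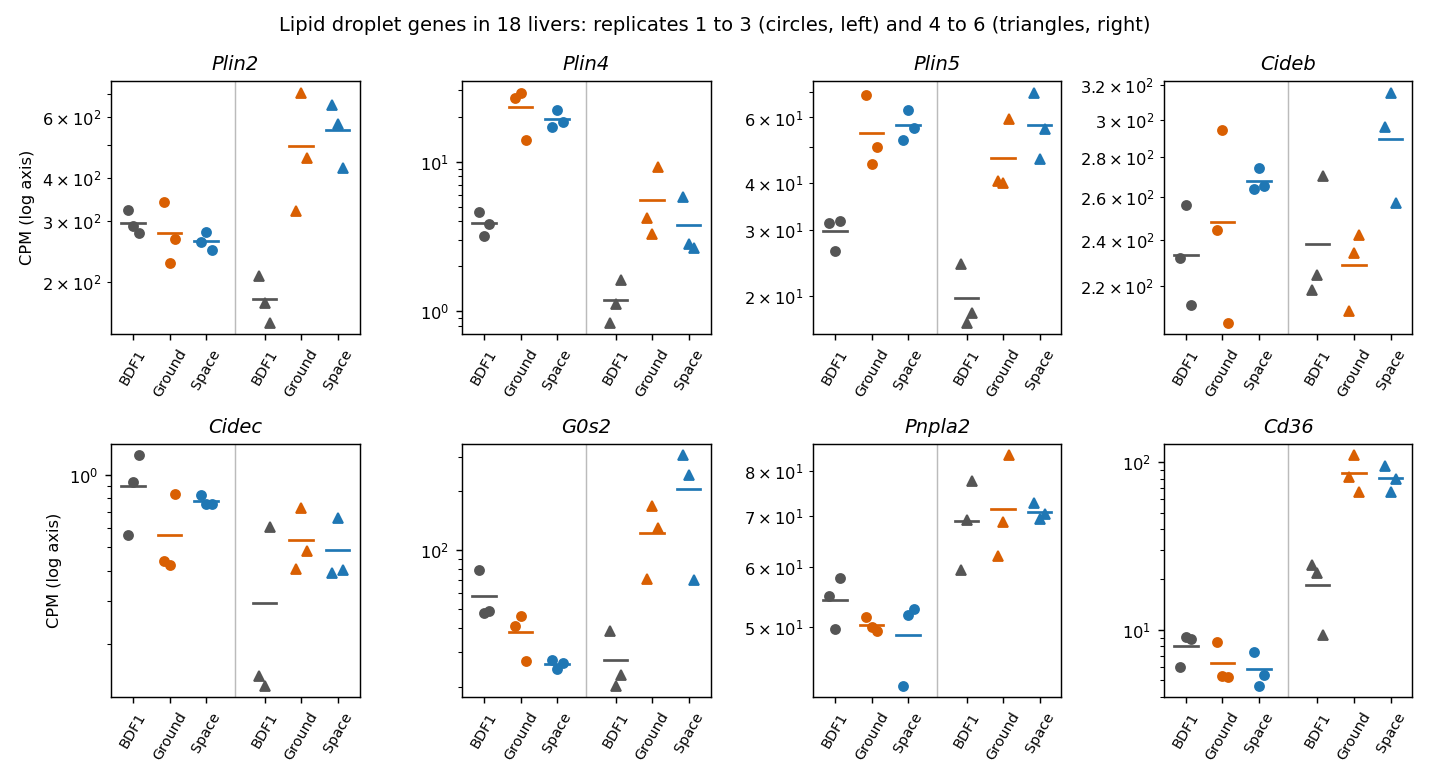
Level of the 8 tested genes in each liver, in CPM on log axes whose range differs between panels. Each point is 1 library, horizontal lines are means of 3 libraries, circles are replicates 1 to 3 and triangles replicates 4 to 6. Cd36 reached 66.2 to 110.1 CPM in the Space and Ground triangles and at most 24.3 CPM in all other libraries, and every Space and Ground point of Plin4 and Plin5 lay above the BDF1 points of its set.

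Plin2, the main perilipin of hepatocytes (chr4:86648386-86670060, mm10), was at similar levels in all groups of the first set. There it measured 261, 278 and 247 CPM in Space replicates 1 to 3, 342, 226 and 265 CPM in Ground and 322, 290.3 and 276 CPM in BDF1, and the 3 groups overlapped. Its second-set levels were 653, 574 and 427 CPM in Space, 322, 708 and 456 CPM in Ground and 208, 173 and 152 CPM in BDF1. Every Space and Ground liver of the second set was above every BDF1 liver. The means were 551 ± 115, 495 ± 196 and 178 ± 28.5 CPM (SD, n = 3). Against BDF1, Space was 3.10-fold higher (log2 difference 1.63, SE 0.24, adjusted p = 0.00085) and Ground 2.78-fold higher (1.48, SE 0.24, adjusted p = 0.000937). Without the 3 libraries high in Serpina6, which include the highest Plin2 value of each of the 2 groups, the values were 1.49 for Space (adjusted p = 0.000269) and 0.86 for Ground (0.0265), the latter from replicate 4 alone. Against BDF1 in the first set, the log2 difference was -0.18 for Space (95% interval -0.67 to 0.31) and -0.09 for Ground (-0.58 to 0.40).

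Plin5, the perilipin that tethers droplets to mitochondria (chr17:56111601-56117596), was higher than in BDF1 in both sets and both groups. First-set levels were 52.3, 62.7 and 56.4 CPM in Space, 69.0, 45.0 and 50.1 CPM in Ground and 31.2, 26.4 and 31.8 CPM in BDF1. Its second-set levels were 70.0, 46.5 and 55.8 CPM in Space, 40.6, 40.01 and 59.3 CPM in Ground and 24.3, 16.9 and 17.9 CPM in BDF1. No Space or Ground value fell within the BDF1 range of its set. The increase was 1.92-fold in Space and 1.83-fold in Ground in the first set (log2 0.94 and 0.87, SE 0.20 for both, adjusted p = 0.013 and 0.0302). In the second set it was 2.91-fold and 2.36-fold (log2 1.54 and 1.24, SE 0.20 for both, adjusted p = 0.000377 and 0.000993). The first-set calls were close to the threshold. For Space, the log2 value was 0.86 without Space replicate 2 (adjusted p = 0.0601), 0.86 without BDF1 replicate 2 (0.0711) and 0.99 without the 2 libraries with sperm transcripts (0.0583). For Ground the adjusted p lay above 0.05 when Ground replicate 1 or 3 or any BDF1 library of the first set was left out (log2 0.67 to 0.93, adjusted p 0.0568 to 0.142) and without those 2 libraries (0.92, 0.112). With the replicate number as a block within the sets, the Ground value was 0.87 with an adjusted p of 0.0594.

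Plin4 (chr17:56100591-56109803) showed the largest differences of the first set. It measured 16.9, 22.2 and 18.5 CPM in Space, 26.8, 29.0 and 14.0 CPM in Ground and 4.64, 3.18 and 3.86 CPM in BDF1. All 6 Space and Ground values were more than 3 times the highest BDF1 value. The difference was 4.91-fold in Space (log2 2.30, SE 0.36, adjusted p = 0.0022) and 5.95-fold in Ground (log2 2.57, SE 0.36, adjusted p = 0.00299). All groups were lower in the second set, at 5.78, 2.83 and 2.66 CPM in Space, 4.20, 3.29 and 9.19 CPM in Ground and 0.837, 1.12 and 1.61 CPM in BDF1. Again no Space or Ground liver overlapped the BDF1 livers, with Space 3.09-fold higher (log2 1.63, SE 0.44, adjusted p = 0.0258) and Ground 4.64-fold higher (log2 2.21, SE 0.43, adjusted p = 0.003). The second-set call for Space was lost without Space replicate 4 (log2 1.204, adjusted p = 0.127), BDF1 replicate 4 (1.43, 0.101) or BDF1 replicate 5 (1.58, 0.0881), and with limma voom (1.41, 0.0866). It was also lost with the second-set libraries alone (1.63, 0.0801) and without the 3 libraries high in Serpina6 (1.202, 0.052). Plin4 shares 17 bp of exon with Hdgfl2 on the opposite strand.

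G0s2, the inhibitor of adipose triglyceride lipase (chr1:193272161-193273217), had the largest difference from BDF1 in the second set of Space, and in Ground it came close behind Cd36 and Plin4. Its levels there were 305, 241 and 70.3 CPM in Space, 71.3, 167 and 129.5 CPM in Ground and 38.6, 20.2 and 23.0 CPM in BDF1. The lowest Space and Ground livers were still above the highest BDF1 liver. Space was 7.52-fold higher (log2 2.91, SE 0.44, adjusted p = 0.00107) and Ground 4.50-fold higher (log2 2.17, SE 0.43, adjusted p = 0.00375). Within Space, the highest value was in replicate 4, and within Ground the highest values were in replicates 5 and 6, which are the 3 libraries with a high share of Serpina6. Without those 3 libraries, the Ground difference, then of replicate 4 alone, was 1.39 on the log2 scale with an adjusted p of 0.0931. The Space difference, of 2 libraries, was 2.51 (adjusted p = 0.00191). The part of what sets these libraries apart was not tested. The first set had the opposite order, with 27.2, 24.5 and 26.4 CPM in Space, 40.9, 46.1 and 27.2 CPM in Ground and 79.0, 47.4 and 48.5 CPM in BDF1. All Space and Ground values of that set lay below every BDF1 value. There the log2 difference from BDF1 was -1.16 for Space (SE 0.42, adjusted p = 0.134) and -0.62 for Ground (SE 0.42, adjusted p = 0.502), and neither passed. That Space value did pass with the libraries of the first set alone (-1.17, adjusted p = 0.00975), with limma voom (-1.04, 0.0297) and without Space replicate 6 (-1.16, 0.0439).

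Pnpla2, which encodes the lipase itself (chr7:141455198-141460743), did not differ from BDF1 past the test in either set. It measured 42.0, 52.0 and 52.8 CPM in Space, 51.5, 50.1 and 49.5 CPM in Ground and 55.0, 49.7 and 58.0 CPM in BDF1 in the first set. Second-set values were 72.8, 69.2 and 70.4 CPM in Space, 61.9, 68.7 and 84.0 CPM in Ground and 59.5, 69.2 and 77.8 CPM in BDF1. The groups overlapped in both sets. Against BDF1 in the second set, the log2 difference was 0.04 for Space (95% interval -0.22 to 0.31) and 0.06 for Ground (-0.21 to 0.32), so a doubling lay outside both intervals. When libraries were scaled by their total counts instead of TMM factors, these values became -0.36 and -0.43 and passed the test as lower, as did the means of the sets (-0.32 and -0.31). That scaling moved the median of all genes by a like amount, to -0.39 and -0.46.

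Cd36, the fatty acid transporter (chr5:17781690-17888801), differed between groups in the second set. It measured 94.7, 66.6 and 79.0 CPM in Space, 81.2, 110.1 and 66.2 CPM in Ground and 24.3, 21.8 and 9.32 CPM in BDF1. The lowest Space and Ground values were well above the highest BDF1 value, and the means were 80.1 ± 14.1, 85.8 ± 22.3 and 18.5 ± 8.003 CPM (SD, n = 3). Space was 4.33-fold higher (log2 2.12, SE 0.30, adjusted p = 0.000721) and Ground 4.65-fold higher (log2 2.22, SE 0.30, adjusted p = 0.000358). It stayed low in the first set of all groups, at 7.41, 4.66 and 5.38 CPM in Space, 8.48, 5.33 and 5.26 CPM in Ground and 6.04, 9.06 and 8.83 CPM in BDF1. Those groups overlapped, and the log2 difference from BDF1 was -0.45 for Space (95% interval -1.14 to 0.24) and -0.32 for Ground (-0.999 to 0.36). Macrophages and endothelium also express Cd36. The summed level of 8 Kupffer cell and macrophage markers in the second set was 168 to 216 CPM in Space, 137 to 227 CPM in Ground and 81.1 to 167 CPM in BDF1, with 1 of 8 markers, Clec4f, called higher in Space. For 8 endothelial markers it was 71.4 to 93.4, 97.5 to 136 and 61.0 to 132 CPM, with Stab2 called higher in Ground. Summed hepatocyte markers were 232672 to 286261, 223187 to 385209 and 83851.6 to 106282 CPM, with Alb and Apoa1 called higher and Cyp2e1 lower in both groups. The other 7 of 10 were not called, and the median log2 difference over the 10 was 0.16 in Space and 0.08 in Ground, so the higher sum came from few genes, Alb among them. For 8 stellate cell markers the sum was 165 to 214 CPM in Space, 185 to 251 CPM in Ground and 149 to 235 CPM in BDF1. In the first set it was 189 to 223, 164 to 205 and 131 to 151 CPM, with Space and Ground above BDF1 without overlap. The part of these markers in the Cd36 difference, or in those of Plin2, Plin4, Plin5 and G0s2, was not tested.

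Cideb, the CIDE gene of hepatocytes (chr14:55754050-55758458), had the narrowest range of the 8 over the 18 libraries, relative to its level. It measured 264, 274 and 265 CPM in Space, 245, 294 and 206 CPM in Ground and 232, 256 and 212 CPM in BDF1 in the first set. Second-set values were 296, 316 and 257 CPM in Space, 210.3, 234 and 242 CPM in Ground and 218, 225 and 270.4 CPM in BDF1. Space lay above Ground in the second set without overlap, by 0.34 on the log2 scale (SE 0.13, unadjusted p = 0.0217, adjusted p = 0.278), which did not pass. Scaled by total counts, Cideb in Ground was lower than in BDF1 in the second set (-0.53, adjusted p = 0.0048, against -0.06 with TMM factors). Cideb and Nop9 lie on opposite strands and share 1136 bp of exon, out of an exon length of 1488 bp for Cideb. The strand setting of the counting is not stated, so the Cideb values are uncertain to that extent.

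Cidec, the CIDE gene known from adipocytes and steatotic liver (chr6:113424634-113435760), was close to the limit of detection, with 3 to 23 counts per library. First-set levels were 0.824, 0.755 and 0.753 CPM in Space, 0.439, 0.422 and 0.834 CPM in Ground and 0.562, 0.933 and 1.201 CPM in BDF1. Its second-set levels were 0.390, 0.662 and 0.405 CPM in Space, 0.408, 0.724 and 0.484 CPM in Ground and 0.148, 0.134 and 0.605 CPM in BDF1. The groups overlapped in both sets. No difference from BDF1 was detectable at this depth, with log2 values of 0.74 (95% interval -0.42 to 1.89) for Space and 0.87 (-0.28 to 2.01) for Ground in the second set. Without BDF1 replicate 6, the Ground value became 1.88 and passed (adjusted p = 0.0461).

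Cidea, the CIDE gene of brown fat, had 10 counts in all 18 libraries together, at most 2 in any of them and none in 10. Mogat1 (chr1:78510991-78538173) had 50 counts, at most 6 in a library and none in 2, and shares 200 bp of exon with BC035947 on the opposite strand. The highest levels were 0.132 CPM for Cidea and 0.301 CPM for Mogat1. Since 3 counts amounted to 0.134 to 0.234 CPM, no difference could be read for either gene at this depth.

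Adipocyte markers were examined because Plin4, Cidec, G0s2 and Cd36 are also abundant in fat. Of the 10 markers, 4 were tested. Lep was at 0 counts in every library, Ucp1 at 1 or fewer, Retn at 2 or fewer, Adipoq at 8 or fewer, Plin1, the perilipin of white fat, at 13 or fewer and Cfd at 47 or fewer. Fabp4 had 55 to 148 counts and Adrb3 71 to 523 in each library. The summed level of the 10 in the second set was 1961 to 3176 CPM in Space, 1717 to 3343 CPM in Ground and 2322 to 3274 CPM in BDF1, nearly all of it from Car3, which ranged from 1674 to 7334 CPM and is also expressed by hepatocytes. The first-set sum was 5332 to 6887, 4406 to 7375 and 1717 to 3249 CPM, and Car3 was called higher in Space (log2 1.32) and in Ground (log2 1.27). Lipe, the remaining marker, was called lower in Space in that set (log2 -0.64).

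**Figure D2:**
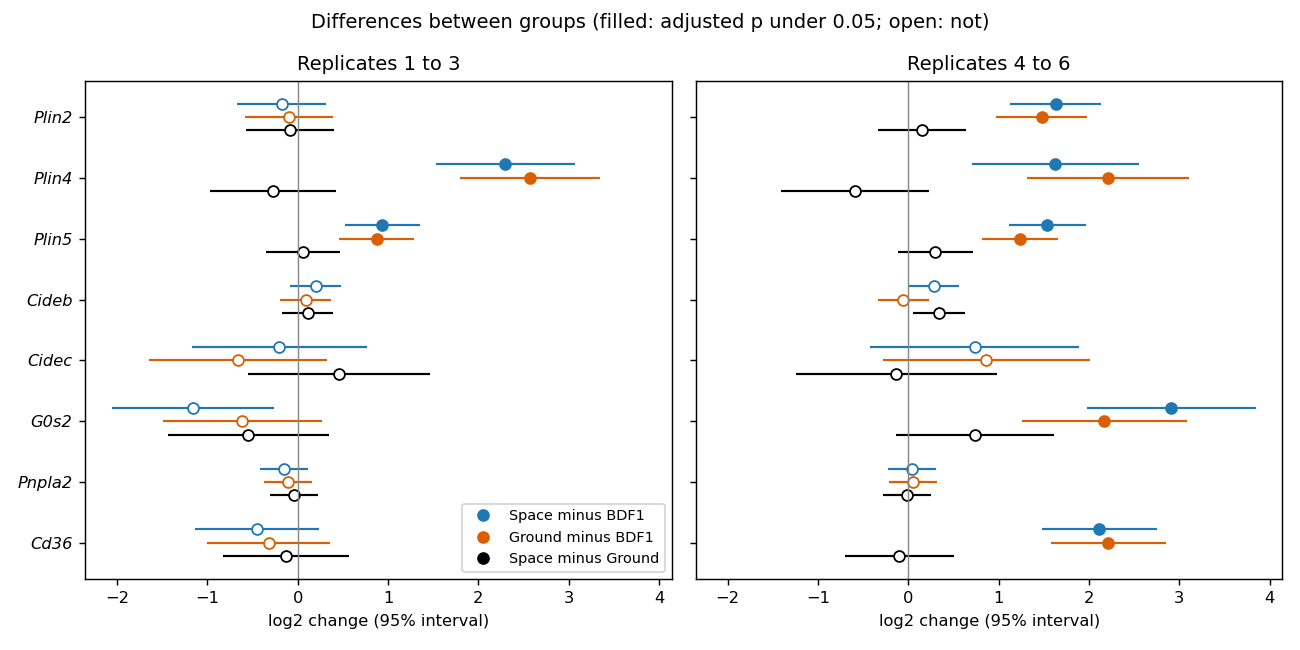
Fitted log2 difference between groups for the 8 tested genes, with 95% intervals, in the first set (left) and the second set (right). Filled points passed at an adjusted p under 0.05 and open points did not. Filled points stand for Plin4 and Plin5 on the left and for Plin2, Plin4, Plin5, G0s2 and Cd36 on the right, all against BDF1, and all Space minus Ground points are open.

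Storage in space was addressed by Space against Ground, whose labels differ in the place where the GS cells were stored. No lipid droplet gene was called by edgeR in the first set (0 of 8, and 0 at an unadjusted p under 0.05), where 0.00749% of all genes were called. The second set gave 0 of 8 as well, with Cideb alone at an unadjusted p under 0.05, beside 0.0225% of all genes. DESeq2 and limma voom also called 0 of 8 in each set. Over all genes DESeq2 called 68 in the first set and 139 in the second, and limma voom 483 and 0, against 1 and 3 by edgeR. The 95% intervals of the log2 difference bound its size, if livers are taken as independent. For Plin2 they ran from -0.57 to 0.41 in the first set and from -0.33 to 0.64 in the second, for Plin5 from -0.35 to 0.47 and from -0.11 to 0.71, and for Pnpla2 from -0.31 to 0.22 and from -0.28 to 0.25. For Cd36 they were -0.83 to 0.57 and -0.70 to 0.50. For Cideb they were -0.17 to 0.39 and 0.06 to 0.62, the second of which lay above 0. They were wider for Plin4 (-0.98 to 0.42 and -1.40 to 0.23), G0s2 (-1.44 to 0.34 and -0.13 to 1.61) and Cidec (-0.55 to 1.47 and -1.24 to 0.98), for each of which an interval reached a doubling or halving in at least 1 set.

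Averaging the 2 sets used all 6 libraries of a group. Space against BDF1 gave 4 of 8 calls, beside 12.9% of all genes, and Ground against BDF1 gave 4 of 8, beside 14.6%. The 4 genes were Plin2, Plin4, Plin5 and Cd36 in both. Plin4 averaged 3.90-fold higher in Space and 5.25-fold higher in Ground (adjusted p = 0.000642 and 0.000135), and Plin5 2.36-fold and 2.08-fold higher (0.000102 and 0.000344). Plin2 averaged 1.66-fold and 1.62-fold higher (0.00988 and 0.0115), and Cd36 1.78-fold and 1.93-fold higher (0.0211 and 0.00953). For Plin2 in Ground the call was lost without the 3 libraries high in Serpina6 (log2 0.38, adjusted p = 0.0782), with replicate 4 alone left in its second set. For Cd36 in Space it was lost without Space replicate 1 (log2 0.73, adjusted p = 0.0655) or BDF1 replicate 1 (0.74, 0.0596), and when scaled by total counts (0.55, 0.0666). In fits that did not separate the sets, Plin2 and Cd36 lost their calls in both groups, with group alone (adjusted p 0.153 to 0.279) and with group and a replicate block (0.218 to 0.334), and Plin4 lost its call in Space with group alone (2.18, 0.0686). By edgeR G0s2 did not pass, at a log2 difference of 0.87 in Space and 0.78 in Ground (adjusted p = 0.0612 and 0.0889), and it did pass in both without Space replicate 6 (1.08 and 0.78, adjusted p = 0.00679 and 0.0257) or Ground replicate 4 (0.87 and 0.91, 0.0455 and 0.0412). Limma voom called G0s2 in both (0.83 and 0.87, 0.0225 and 0.033) and Cideb in Space (0.27, 0.017), and G0s2 in Space also passed with no filter on low counts (0.86, 0.0364) and without the 2 libraries with sperm transcripts (1.02, 0.0203). Space against Ground gave 0 of 8 by edgeR, with Cideb alone at an unadjusted p under 0.05, beside 0.0225% of all genes. DESeq2 and limma voom gave 0 of 8 as well, where they called 290 and 557 of all genes.

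The difference from BDF1 was itself compared between the sets by an interaction contrast. Plin2, G0s2 and Cd36 passed for Space, 3 of 8 where 3.19% of all genes were called, and the same 3 passed for Ground, where the share was 2.74%. G0s2 changed most, with a difference from BDF1 that was 4.07 higher on the log2 scale in the second set than in the first for Space (SE 0.61, adjusted p = 0.00179) and 2.78 higher for Ground (SE 0.60, adjusted p = 0.0206). For Cd36 the values were 2.57 (SE 0.44, adjusted p = 0.00474) and 2.54 (SE 0.44, adjusted p = 0.00722). For Plin2 they were 1.81 (SE 0.33, adjusted p = 0.00693) and 1.57 (SE 0.33, adjusted p = 0.019). The Ground calls of Plin2 and G0s2 were lost without BDF1 replicate 5 (log2 1.56 and 2.61, adjusted p = 0.0504 and 0.061) or BDF1 replicate 6 (1.47 and 2.67, 0.0592 and 0.0629), where the values moved little. They were also lost without the 3 libraries high in Serpina6, with smaller values (0.95 and 2.01, adjusted p = 0.086 and 0.105), in a fit with a single Ground library in the second set. That of G0s2 was also lost without Ground replicate 5 (2.49, 0.0503) and with the replicate number as a block within the sets (2.84, 0.0507). Plin4 and Plin5, higher than BDF1 in both sets, did not pass, with log2 values of -0.67 and 0.60 for Space and -0.36 and 0.37 for Ground. Space minus Ground gave 0 of 8 by edgeR, with G0s2 alone at an unadjusted p under 0.05 (log2 1.29, adjusted p = 0.632), and 0 by DESeq2 and limma voom. Over all genes this contrast called 0%, with 1038 genes at an unadjusted p under 0.05, 30 called by DESeq2 and 12 by limma voom.

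Within each group, the second set was compared with the first. Cd36 was higher in the second set of all 3 groups, 13.7-fold in Space, 13.5-fold in Ground and 2.32-fold in BDF1 (adjusted p = 8.87e-07, 7.91e-07 and 0.0147). Plin4 was lower in all 3, 5.20-fold, 4.20-fold and 3.28-fold (adjusted p = 0.000306, 0.000704 and 0.0134). G0s2 was 7.87-fold higher in Space and 3.22-fold higher in Ground (adjusted p = 0.000196 and 0.0105), while in BDF1 its log2 value was -1.10 and did not pass by edgeR (adjusted p = 0.0926). That value passed with limma voom (-1.08, 0.0237), without the 3 libraries high in Serpina6 (-1.09, 0.0469), without the 2 with sperm transcripts (-1.21, 0.0405) and without Space replicate 6 (-1.10, 0.0254). Plin2 was 2.10-fold and 1.78-fold higher in Space and Ground (adjusted p = 0.00397 and 0.0195) and 1.67-fold lower in BDF1 (adjusted p = 0.0434). Pnpla2 was 1.45-fold and 1.42-fold higher in Space and Ground (adjusted p = 0.0065 and 0.00983), and Cidec was 3.02-fold lower in BDF1 (adjusted p = 0.0422). Plin5 and Cideb passed in none of the groups by edgeR. Plin5 in BDF1 was at a log2 value of -0.60 (adjusted p = 0.0544), and it passed with DESeq2 (-0.59, 0.0333), limma voom (-0.63, 0.00975), total counts (-0.62, 0.0374) and no filter on low counts (-0.60, 0.0472), without the 3 libraries high in Serpina6 (-0.59, 0.0228) and with 6 of the 18 libraries left out singly. Pnpla2 in BDF1 was at 0.34 (adjusted p = 0.0766) and passed with DESeq2 (0.0467), with limma voom (0.0296) and without BDF1 replicate 4 (log2 0.44, 0.0437). Its log2 value was 0.35 without the 3 libraries high in Serpina6. In all, 5 of 8 were called in Space, 5 in Ground and 4 in BDF1, beside 21.9%, 18.3% and 14.6% of all genes.

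Several of these set differences had adjusted p-values close to the threshold and lost their call with 1 library left out. In BDF1, the Plin2 call was lost when any 1 of Space replicates 1, 2, 3 and 5 or BDF1 replicates 1, 2, 3, 5 and 6 was left out (log2 -0.79 to -0.64, adjusted p 0.0525 to 0.15), and the Cidec call when any 1 of Space replicates 1 to 3, Ground replicates 1 and 6 or BDF1 replicates 2 to 5 was (log2 -1.61 to -1.25, 0.0506 to 0.171). Space and Ground libraries enter these values only through the shared spread and scaling. The Plin2 and Cidec calls in BDF1 were also lost with the replicate block within the sets (log2 -0.73 and -1.63, adjusted p = 0.0613 and 0.0605). Both were lost without the 2 libraries with sperm transcripts (-0.79 and -1.33, 0.0729 and 0.18), and Cidec with no filter on low counts (-1.59, 0.0715). The BDF1 calls of Plin4 and Cd36 were lost without BDF1 replicate 1, 4 or 5 (log2 -1.68 to -1.52 and 0.0509 to 0.0561 for Plin4, log2 0.97 to 1.07 and 0.0684 to 0.0789 for Cd36). Without the 3 libraries high in Serpina6, where replicate 4 alone stands for the second set of Ground, the Ground values were 0.22 for Plin2 (adjusted p = 0.604), 0.91 for G0s2 (0.263) and 0.30 for Pnpla2 (0.235). Scaling by total counts ended the calls of Plin2 in Ground (0.37, adjusted p = 0.157) and of Pnpla2 in Space (0.24, 0.158) and Ground (0.06, 0.725), and it gave calls as lower for Plin5 (-0.68, 0.0069) and Cideb (-0.55, 0.00406) in Ground. In Ground, the Plin2 call was lost without replicate 2, 3 or 5 (log2 0.48 to 0.80, adjusted p 0.0641 to 0.134), the G0s2 call without replicate 3 (1.497, 0.052) and the Pnpla2 call without replicate 6 (0.37, 0.0567). The sets also differed in clock genes, with 11 of 12 called in BDF1, 10 in Ground and 6 in Space, among them Dbp, which was 180-fold higher in the second set of BDF1, 29.9-fold in Ground and 25.1-fold in Space. Sex and clock genes changed together between the sets, so their parts in the differences of the lipid droplet genes cannot be told apart.

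**Figure D3:**
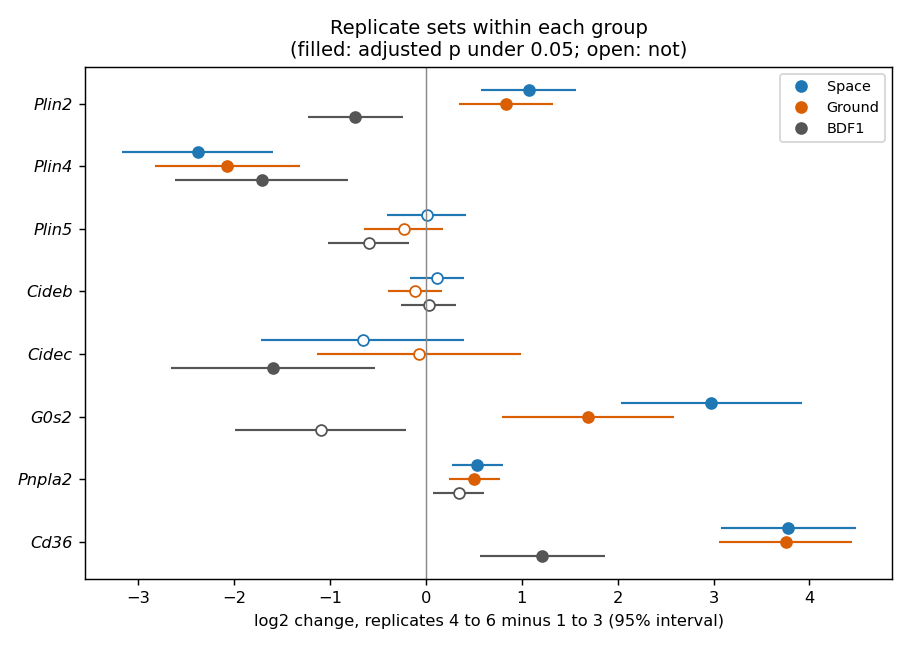
Fitted log2 change from replicates 1 to 3 to replicates 4 to 6 within Space, Ground and BDF1, with 95% intervals. Filled points passed at an adjusted p under 0.05. Cd36 lay at 3.78, 3.75 and 1.21 in Space, Ground and BDF1 and Plin4 at -2.38, -2.07 and -1.71, whereas Plin2 and G0s2 lay above 0 in Space and Ground and below 0 in BDF1.

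Across the 18 libraries, which share the structure of groups and sets, the log2 CPM of G0s2 and Plin2 ran together (Pearson r = 0.902), as did those of Plin4 and Plin5 less closely (r = 0.747). Cd36 ran with G0s2 (r = 0.755) and Pnpla2 (r = 0.734). Plin4 and Cd36 were negatively related (r = -0.475), and Plin2 and Plin4 hardly at all (r = 0.0704). In a search of 11733 genes whose mean level reached 1 CPM, the one most like Plin2 was Creb3l3 (r = 0.946), which encodes a hepatic transcription factor of fasting. For Plin5 it was Angptl4 (r = 0.949), a PPAR-alpha target that inhibits lipoprotein lipase, followed by Pex11a (r = 0.938), a gene of peroxisome division. For G0s2 it was Inhbe (r = 0.953), the gene of a hepatic activin subunit, with Plin2 itself in the third place. Cd36 was most like the cytochrome P450 genes Cyp3a41b (r = 0.969), Cyp3a16 (r = 0.961) and Cyp3a44 (r = 0.951), which are near-identical copies whose reads may have been shared. Plin4 was most like C9orf72 (r = 0.945) and, in the third place, Ddit4 (r = 0.935). Pnpla2 was most like Rhbdf1 (r = 0.921), and Cideb like Ndufa3 (r = 0.940), a subunit of respiratory complex I. These are descriptions over 18 points that are not independent.

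**Figure D4:**
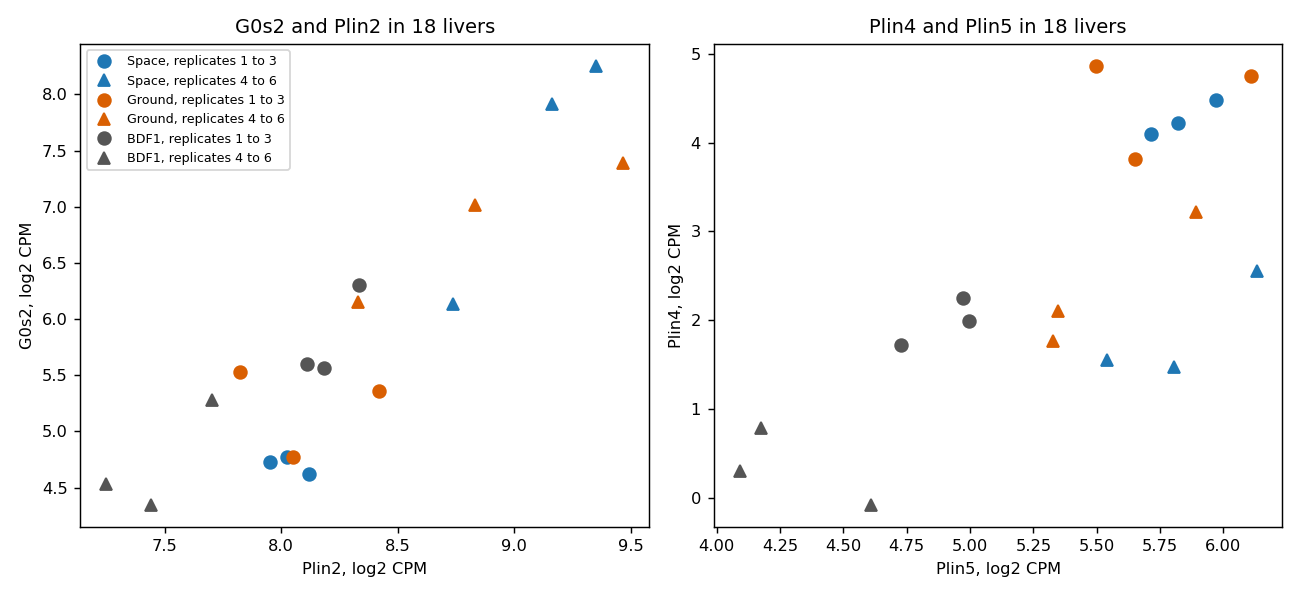
Level of G0s2 against Plin2 (left) and of Plin4 against Plin5 (right), both as log2 CPM, with 1 point for each of 18 libraries, colours for groups and shapes for the sets. The highest values of both genes in the G0s2 plot are from second-set Space and Ground livers, and in the Plin4 plot the first-set livers lie above the second-set livers of the same group.

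Other genes of the pathway were counted in 8 lists with 101 different genes tested. None was called between Space and Ground in either set by edgeR, with 26 at an unadjusted p under 0.05 in the first set and 12 in the second. Of all 13356 genes, 1292 and 1852 were under that p. Beside the perilipins and CIDE genes, 13 other droplet-bound genes were tested, and against BDF1 they gave no call in the first set for Space or Ground and none in the second set for Space. Ground differed in the second set by Fitm2, which helps droplets bud from the endoplasmic reticulum (log2 0.61, adjusted p = 0.0124), and Hsd17b11, a droplet-bound dehydrogenase (log2 -0.67, adjusted p = 0.036). Their median log2 difference was -0.06 in that comparison.

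Among 13 other lipases and cofactors, the second set had Pnpla3 and Pnpla5 called higher in Space and in Ground, and Lpl in Ground (log2 2.16, adjusted p = 0.0156). Of all genes tested, 11.9% were called for Space and 15.2% for Ground in that set, and 4.64% and 1.92% in the first. Pnpla3, a lipase of hepatic droplets, was 4.08 and 3.36 higher on the log2 scale (adjusted p = 0.0164 and 0.0314), with 92 to 612 counts in the Space and Ground libraries and 6 to 45 in BDF1. Pnpla5 had 47 to 355 counts there and at most 1 in BDF1. The first set had Ces1f higher and Lipe, hormone-sensitive lipase, lower in Space (log2 0.64 and -0.64, adjusted p = 0.0255 and 0.0475) and Ces1d and Ces1g higher in Ground (log2 0.66 and 0.86). Triglyceride synthesis, with 13 genes tested, had Lpin1 and Lpin2, the lipins that make diacylglycerol, higher in the first set of both groups. For Lpin1 the log2 difference was 4.09 in Space and 2.96 in Ground (adjusted p = 1.21e-05 and 0.000614), and for Lpin2 1.74 and 1.24 (adjusted p = 7.48e-05 and 0.0031). Gpam was also higher in Space (log2 1.19). Gpat4 was lower in the second set of both (log2 -0.97 and -1.01, adjusted p = 0.000278 and 0.00013). Ground in that set also had Lpin1 (log2 0.97) and Agpat3 (0.53) higher and Lpin3 (-0.69) and Dgat1 (-0.33) lower.

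Of 15 genes of fatty acid uptake and activation, Acsl5, an acyl-CoA synthetase, was higher in Space in both sets (log2 0.92 and 0.91) and in Ground in the second (log2 0.93). Acsl3, another acyl-CoA synthetase, was lower in the second set of both (log2 -0.92 and -1.24, adjusted p = 0.0128 and 0.00169). Fabp1, the liver fatty acid binding protein, was higher in Space in both sets (log2 0.88 and 1.22) and in Ground in the second (log2 0.88, adjusted p = 0.0231). Among 14 regulators, Creb3l3 was higher in the second set of Space and Ground (log2 0.77 and 0.79, adjusted p = 0.00444 and 0.00283), as was Nr1i3 (log2 1.04 and 1.22), and Srebf1 was lower (log2 -1.37 and -1.87, adjusted p = 0.0042 and 0.000453). Foxo1 was higher in the first set (log2 0.63 and 0.68).

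Of 12 PPAR-alpha targets, 5 were higher and none lower in Space in the second set, and 6 higher and none lower in Ground, with median log2 differences of 0.71 and 0.93. They included Fgf21, a hormone of fasting (log2 3.68 and 3.50), Angptl4 (2.45 and 2.59) and Acot1 (2.44 and 2.72). Of all genes tested, 11.9% were called for Space and 15.2% for Ground in that set. In the first set Angptl4 was higher (1.38 and 1.24) but Vnn1 (-1.54 and -1.69) and Cpt1a (-0.65 and -0.76) were lower in both, and Cyp4a14 (-3.51) in Space. Of 9 fed-response genes of lipid synthesis and glycolysis, all 9 were higher in Space in the first set, with a median log2 difference of 2.35, and 3 in Ground, with a median of 1.24. They included Scd1 (4.47) in Space and Thrsp (4.39 and 2.77) and Pklr (2.40 and 1.73) in both. The share of all genes called in the first set was 4.64% for Space and 1.92% for Ground. The second set had 2 of 9 higher in Space and 1 in Ground. Of 12 clock genes, 7 were higher in Space and 3 in Ground in the first set, with Per2 at 2.19 and 2.20. The second set had 2 higher and 1 lower in Space, and 1 higher and 2 lower in Ground. By the interaction contrast, the difference from BDF1 was higher in the second set for 3 PPAR-alpha targets in Space and 4 in Ground, among them Vnn1 (2.51 and 3.07) and Acot1 (2.02 and 2.30), with none lower. It was lower for 3 fed-response genes in Space and 1 in Ground, Thrsp being called in both (-3.62 and -3.21), and for 6 clock genes in Space and 4 in Ground, with Npas2 alone higher, in Space. The interaction called 3.19% of all genes in Space and 2.74% in Ground. The part of these lists in the differences of the lipid droplet genes was not tested.

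**Figure D5:**
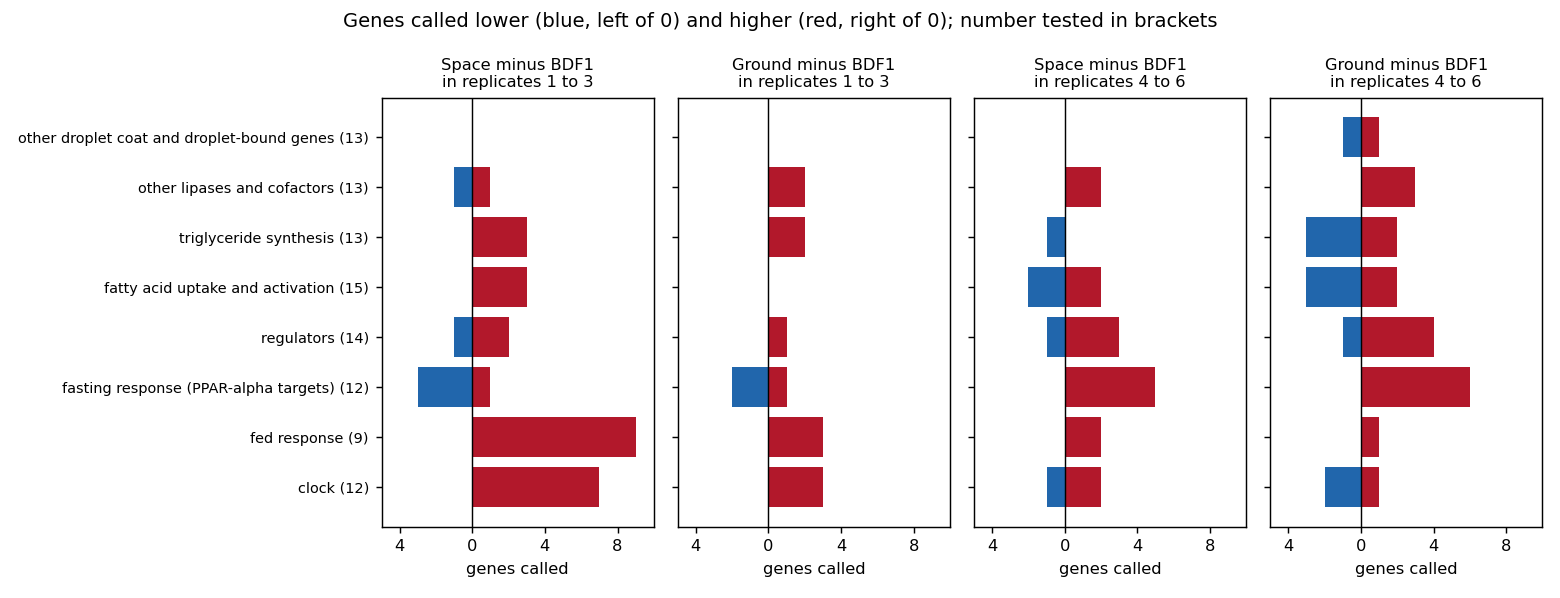
Number of genes called higher (red) and lower (blue) than in BDF1 at an adjusted p under 0.05 in each of 8 lists, with the number tested in brackets, for Space and Ground in the first set (left 2 panels) and the second set (right 2 panels). Fed-response and clock genes make up the longest bars for Space in the first set, with 9 of 9 and 7 of 12, and PPAR-alpha targets the longest in the second set, with 5 and 6 of 12. Of all genes tested, 4.64%, 1.92%, 11.9% and 15.2% were called, in the order of the panels.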

How the data were processed

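RNA from 18 mouse livers, 6 in each of 3 groups, was sequenced. Per the labels, stranded mRNA libraries were read in paired-end mode, and the submitters' processing notes name bcl2fastq 2.20, cutadapt 4.6, HISAT2 2.2.1, HTSeq 2.0.2 and mm10. The paper's methods instead describe single reads and another version of cutadapt. The strand setting and the treatment of shared reads are not given in the sources used here. What the authors deposited is one table of whole-number read counts by gene, not normalized.

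Counts were filtered with filterByExpr and scaled by TMM factors. A quasi-likelihood model of 6 cells (3 groups by 2 replicate sets) was fitted to all 18 libraries with edgeR 4.0.16 under R 4.3.3. Contrasts were tested two-sided, with Benjamini-Hochberg adjustment over 13356 genes and a threshold of 0.05. Each standard error was derived by dividing the size of the log2 change by the root of its F statistic. Levels in CPM rest on library sizes multiplied by the TMM factors, and their log2 values on a prior count of 2. The script was tested on simulated data. No 2 libraries of a cell agreed within sampling noise. DESeq2 1.42.0, limma 3.58.1 (voom with quality weights), other scalings and filters and left-out libraries were alternatives.

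The 10 genes and all lists were chosen with earlier results of these data known. All 10 genes are named. For each list and comparison, up to 4 called genes with the largest change could be named, and for each of the 10 genes whose mean level reached 1 CPM the 3 most alike. Serpina6, Alb and Dgat1 were chosen after their values were seen. Nothing in the labels says whether mice shared a litter or sire, so p-values measure the spread between these samples.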

Additional observations from a re-analysis of the deposited data

Results flagged for a closer look

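The difference from BDF1 was not the same in the first set (replicates 1 to 3) and the second set (replicates 4 to 6) for 3 of the 8 genes tested, by edgeR interaction contrasts of which 24 were examined. For Plin2 the difference from BDF1 was 1.81 higher on the log2 scale in the second set for Space and 1.57 higher for Ground. For G0s2 the values were 4.07 and 2.78, and for Cd36 2.57 and 2.54. The first-set values were near or below 0 for these genes and the second-set values above 0 in every Space and Ground liver relative to the BDF1 livers of that set. No library stood far from the other 5 of its group for any of the 8 genes, in 24 groups of 6 examined, where chance would give about 1.2. These groups pool both sets, whose differences widen the range, so this says little about a library within its set.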

How the results depend on the processing

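Of 120 contrasts of single genes, 42 were called, and 23 of these kept their call in every alternative and with each library left out. Among them were Plin4 in the first set, Plin2, Plin5 and Cd36 in the second set and G0s2 in Space in the second set, all against BDF1, for both Space and Ground where 2 groups apply. When total counts replaced the TMM factors, 3 values reversed and passed as lower, Pnpla2 in the second set in Space (-0.36) and Ground (-0.43) and the mean of the sets for Cideb in Ground (-0.26). That scaling also made Cideb in Ground in the second set (-0.53) and the means of Pnpla2 in Space (-0.32) and Ground (-0.31) pass as lower. The cause was not tested beyond the shift of all genes given above. Among the lipid droplet genes tested, Space against Ground gave 0 calls in every fit run.

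Counts of called genes moved as follows. For the set difference in BDF1 (4 calls), an adjusted p under 0.1 gave 7 and limma voom 7. With the replicate block within the sets it gave 2, with Plin2 and Cidec lost. With that block Ground against BDF1 in the first set (2 calls) gave 1, with Plin5 lost, and the Ground interaction (3 calls) gave 2, with G0s2 lost (2.84, adjusted p = 0.0507). A replicate block without the sets gave 2 for the mean in Space and 2 in Ground (4 calls each), where Plin2 and Cd36 lost their calls in both, and group alone gave 1 and 2. Without the 3 libraries high in Serpina6, which leaves a single Ground library in the second set, the Ground interaction (3 calls) gave 1 and the set difference in Ground (5 calls) gave 2. Without the 2 libraries with sperm transcripts, Space and Ground against BDF1 in the first set gave 1 each. With each library left out in turn, the calls ranged from 1 to 3 and from 1 to 2 in these 2 comparisons, from 1 to 3 for the Ground interaction, from 3 to 5 for the set difference in Ground and from 0 to 5 in BDF1. In the second set they ranged from 4 to 5 for Space and from 5 to 6 for Ground, and for the means from 3 to 5 and from 4 to 5. The cause of these changes was not tested.

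Libraries of the same replicate number deviated from their cell means with correlations from -0.694 to 0.32 (median -0.0436 over 18 pairs), so the numbers do not pair the libraries beyond the sets. Low counts limit Cidec, Cidea and Mogat1. Leaving out the 10 most abundant genes was chosen after seeing the data and changed no count of calls by more than 1.5 times.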
